A study of Rattus norvegicus with 6 samples.

Results

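Aldo-keto reductases, epoxide hydrolases and aldehyde dehydrogenases were examined in NRK-52E cells treated with streptozotocin (STZ). The genes were 10 chosen by symbol, namely Akr1b8, Akr1b1, Akr1a1, Akr7a2, Akr7a3, Ephx1, Ephx2, Aldh1a1, Aldh2 and Aldh3a1. Of these, 8 were found among the 18930 genes of the count table, and counts of Aldh1a1 and Aldh2 were not analysed here. The choice was made with results of the same comparison known, so the values of these 8 genes in STZ and Control are given as a description and without p-values. NRK-52E is an established epithelial line from rat kidney, labelled WT, and STZ is a nitrosourea carried on a glucosamine that alkylates DNA. RNA was sequenced from 3 Control samples, which received vehicle, and from 3 samples exposed to STZ at 10 mM for 24 h. All samples came from this 1 line, and the labels do not say whether replicates were separate cultures, so any p-value measures the spread between these samples only.

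These enzymes handle reactive carbonyl compounds and epoxides, which arise from lipid peroxidation, sugar metabolism and foreign chemicals. Aldo-keto reductases use NADPH to turn aldehydes and ketones into alcohols, aldehyde dehydrogenases oxidize aldehydes to acids, and epoxide hydrolases add water to epoxides to give diols. In the kidney, aldose reductase makes the osmolyte sorbitol, and several members of these families are known targets of Nrf2, a transcription factor of the response to electrophiles and oxidants, or of the aryl hydrocarbon receptor.

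Total counts were between 10430924 and 15191349 per sample, and the 8 genes together took 0.120% to 0.127% of all counts in Control and 0.160% to 0.165% in STZ. Counts were scaled by edgeR's TMM method and are given as normalized counts, that is, counts brought to the mean library size of the 6 samples. Of 5 kidney epithelial markers in the table, the keratin gene Krt8 had 11691 to 24040 counts per sample and Cdh1 had 16 to 35, while Krt18, Cdh16 and Pax8 had at most 4. Their summed level was 1124 to 1190 CPM (counts scaled to a fixed library total) in Control and 1580 to 1595 in STZ, nearly all of it Krt8 (log2 fold change 0.48), whereas Cdh1 was at -0.69. The 6 mesenchymal markers, led by Vim, summed to 2027 to 2230 CPM in Control and 1893 to 1925 in STZ. The proximal tubule markers Lrp2, Cubn, Slc34a1 and Slc5a2 had at most 10 counts in any sample. Summed over the 6 proximal tubule markers in the table, CPM were 58.1 to 60.9 in Control and 74.0 to 86.0 in STZ. This sum joined opposite differences, since Ggt1 was higher in STZ (log2 fold change 0.73) and Aqp1 was lower (-1.25). The part of these markers in the results was not tested. Endothelial markers had at most 9 counts and leukocyte markers at most 29. Lengths of the transcripts were not used here, so levels are compared between samples for each gene and not between genes.

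Ephx1 and Akr1b8 showed the largest differences among the 8 genes, and both were higher in STZ. The stretches before their start sites are shown first, because these are the genes whose values differ most. The sequences are the 250 bases before each RefSeq start site in the GRCr8 build, written 5′ to 3′ on the strand of the gene. Capitals mark matches on either strand to TGACNNNGC, the core of the antioxidant response element through which Nrf2 acts, GCGTG, the core of the xenobiotic response element of the aryl hydrocarbon receptor, or GGGCGG, the GC box. RefSeq windows were found for 6 of the 10 genes, with a pair of start sites for Ephx1. Akr1b1, Ephx2, Aldh2 and Aldh3a1 had no window and were not searched. The Akr1b8 window is at chr4:63964171-63964420 on the plus strand, and the Ephx1 windows are at chr13:95275853-95276102 and chr13:95263118-95263367 on the minus strand.
Akr1b8: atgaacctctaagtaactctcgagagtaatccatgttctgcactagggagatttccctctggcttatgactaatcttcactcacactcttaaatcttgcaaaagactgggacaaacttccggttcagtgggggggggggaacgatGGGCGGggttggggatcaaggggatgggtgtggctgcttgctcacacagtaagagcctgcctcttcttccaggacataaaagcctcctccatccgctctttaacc
Ephx1, first window: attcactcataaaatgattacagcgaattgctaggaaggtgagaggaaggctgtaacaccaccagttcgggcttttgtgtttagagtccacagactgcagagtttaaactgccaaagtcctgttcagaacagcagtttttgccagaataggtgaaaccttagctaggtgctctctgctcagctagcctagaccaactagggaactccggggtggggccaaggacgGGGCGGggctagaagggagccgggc
Ephx1, second window: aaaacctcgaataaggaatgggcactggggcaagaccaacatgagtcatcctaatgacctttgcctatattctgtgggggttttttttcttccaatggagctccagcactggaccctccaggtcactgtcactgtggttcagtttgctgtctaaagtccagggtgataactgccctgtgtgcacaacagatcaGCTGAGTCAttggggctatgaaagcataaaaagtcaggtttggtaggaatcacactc
The Akr1b8 window held a single GC box, 105 bases before the start site. The first Ephx1 window also held a single GC box, 25 bases before its start site. The second Ephx1 window held TGACTCAGC on the opposite strand, 57 bases before its start site, and this run of letters includes TGACTCA, a recognition sequence known for AP-1 factors. Among 33469 windows of the same length in the table, 10.1% held TGACNNNGC, 25.9% held GCGTG and 30.5% held GGGCGG. The other 4 genes with a window were Aldh1a1, Akr1a1, Akr7a2 and Akr7a3. In these, TGACNNNGC was not found, GCGTG was found in Akr7a2 and Akr7a3, and GGGCGG in the same pair. Matches of letters are given as a description of these windows.

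Ephx1 encodes microsomal epoxide hydrolase, which detoxifies epoxides made from foreign compounds by cytochrome P450 enzymes. It had 819, 787 and 686 normalized counts in Control and 2897, 3073 and 2852 in STZ, in each case in the order of the replicate numbers. All STZ samples lay far above all Control samples. In RNA from whole cultures, more RNA per cell and more cells that express a gene cannot be told apart. The mean was 764 ± 69.2 in Control (SD, n = 3) and 2941 ± 117 in STZ (SD, n = 3), a log2 fold change of 1.95 ± 0.05 (SE), or 3.86-fold. This fold change stood at the 99.6th percentile of the 11870 genes that passed the filter on low counts.

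Ephx2 encodes soluble epoxide hydrolase, which hydrolyses epoxides of fatty acids such as the epoxyeicosatrienoic acids. Its normalized counts were 180, 163 and 139 in Control and 116, 116 and 107 in STZ. The groups did not overlap, and Ephx2 was lower in STZ, in the opposite direction to Ephx1. The mean was 160 ± 20.5 in Control (SD, n = 3) and 113 ± 4.98 in STZ (SD, n = 3), with a log2 fold change of -0.50 ± 0.12 (SE). Within a sample, the ratio of Ephx1 to Ephx2 counts does not depend on the scaling of the libraries. It was 4.56, 4.83 and 4.94 in Control and 25.0, 26.6 and 26.6 in STZ, so that the ratio was 5.46-fold higher in STZ.

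Akr1b8 encodes an aldose reductase-related enzyme that reduces aliphatic and unsaturated aldehydes. It had 698, 726 and 778 normalized counts in Control and 2391, 2448 and 2777 in STZ. Every STZ sample was above every Control sample, and STZ replicate 3 was the highest. The mean was 734 ± 40.3 in Control (SD, n = 3) and 2539 ± 208 in STZ (SD, n = 3), a log2 fold change of 1.79 ± 0.05 (SE), or 3.46-fold. This was at the 99.5th percentile of all genes tested.

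Akr1b1 encodes aldose reductase, which converts glucose to sorbitol as the first step of the polyol pathway. Its normalized counts were 3038, 2920 and 2871 in Control and 4497, 4272 and 4328 in STZ. The groups were well separated, and the samples within each group were close, with an SD of 2.91% of the mean in Control and 2.68% in STZ. The mean was 2943 ± 85.7 in Control (SD, n = 3) and 4365 ± 117 in STZ (SD, n = 3), a log2 fold change of 0.57 ± 0.04 (SE), or 1.48-fold. Akr1b8 therefore differed more than Akr1b1, and the ratio of their counts was 0.230, 0.248 and 0.271 in Control and 0.532, 0.573 and 0.642 in STZ. The ratio was 2.33-fold higher in STZ, without overlap between the groups.

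In the RefSeq annotation of GRCr8, Akr1b1, Akr1b8, Akr1b10 and Akr1b7 follow each other on chromosome 4 with no other protein-coding gene between them. Akr1b10 and Akr1b7 were named after their values were seen. Akr1b10 had few reads, with 7, 7 and 10 counts in Control and 31, 34 and 41 in STZ. Its log2 fold change was 1.90 ± 0.31 (SE, edgeR's quasi-likelihood test, adjusted p = 1.56e-06). The ratio of Akr1b10 to Akr1b8 counts overlapped between the groups, at 0.0109 to 0.0125 in Control and 0.0117 to 0.0150 in STZ. Reads that map to several places were left out. Some reads of these close paralogs may still be counted for the wrong gene, and this was not tested. Akr1b7 had at most 1 count in any sample. The annotation lists 5 pseudogenes of Akr1b1 and 5 of Akr1b8. Of these, 2 of Akr1b1 were in the count table, with at most 19 counts.

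**Figure D1:**
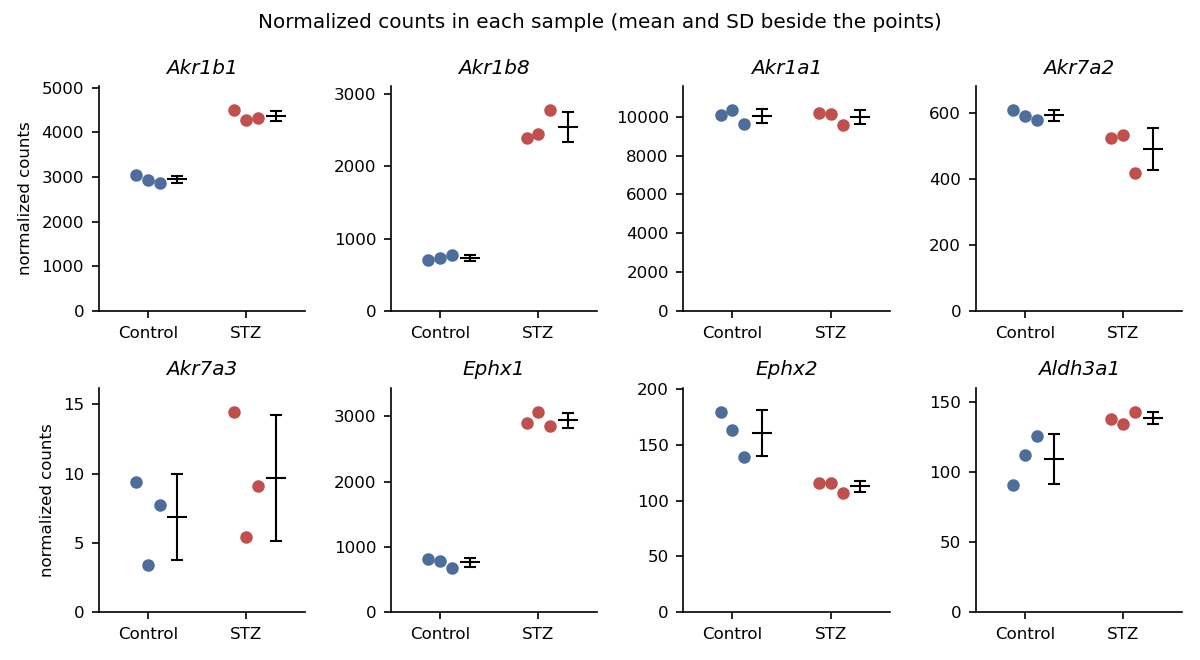
Normalized counts (vertical axes, each from 0) of the 8 genes in the 3 Control samples (blue) and the 3 STZ samples (red), with the mean and SD in black. Ephx1, Akr1b8, Akr1b1 and Aldh3a1 were higher in all STZ samples, Ephx2 and Akr7a2 were lower in all STZ samples, and the groups overlapped for Akr1a1 and Akr7a3.

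Akr1a1 encodes aldehyde reductase, which reduces glucuronate on the route to ascorbate. It had 10090, 10349 and 9636 normalized counts in Control and 10222, 10160 and 9591 in STZ. The groups overlapped almost completely. Means were 10025 ± 361 in Control (SD, n = 3) and 9991 ± 347 in STZ (SD, n = 3), and the log2 fold change was -0.0048 ± 0.04 (SE), which was smaller than its error and at the 50.1th percentile of all genes tested.

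Akr7a2 encodes an aldehyde reductase active on succinic semialdehyde and on aflatoxin dialdehyde. Normalized counts were 608, 591 and 577 in Control and 522, 531 and 416 in STZ. All STZ samples were lower, and STZ replicate 3 lay apart from the other two. The mean was 592 ± 15.6 in Control (SD, n = 3) and 490 ± 63.9 in STZ (SD, n = 3), a log2 fold change of -0.28 ± 0.07 (SE). Without STZ replicate 3 the log2 fold change was -0.17. Akr7a3 encodes the related aflatoxin aldehyde reductase, known in liver for its induction by antioxidants, and lies next to Akr7a2 on chromosome 5. It had 8, 3 and 8 counts in Control and 16, 5 and 11 in STZ, and it did not pass the filter on low counts. Summed over each group, these are 19 and 32 counts, a ratio of 1.41 relative to all counts (95% exact binomial interval 0.774 to 2.63, which covers counting error only). No difference in Akr7a3 was detected at this depth, since the interval of ratios compatible with these counts includes equal levels.

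Aldh3a1 encodes a dehydrogenase for aromatic and medium-chain aldehydes, best known from cornea and stomach and as a target of the aryl hydrocarbon receptor. Its normalized counts were 90.4, 112 and 125 in Control and 138, 134 and 143 in STZ. The groups did not overlap, but Control replicate 3 came close to the STZ samples. The mean was 109 ± 17.6 in Control (SD, n = 3) and 138 ± 4.41 in STZ (SD, n = 3), a log2 fold change of 0.33 ± 0.12 (SE). The call depended on single samples: the log2 fold change was 0.22 without Control replicate 1 and 0.31 without STZ replicate 3, and in both fits it was no longer past the adjusted p-value threshold of 0.05. The same held with DESeq2's Wald test, at 0.33. Aldh3a2, the fatty aldehyde dehydrogenase gene next to Aldh3a1 on chromosome 10 and named for that position after its values were seen, was lower in STZ, with a log2 fold change of -0.23 ± 0.04 (SE, edgeR's quasi-likelihood test, adjusted p = 3.21e-05). The ratio of Aldh3a1 to Aldh3a2 counts was 0.0434, 0.0555 and 0.0675 in Control and 0.0809, 0.0794 and 0.0849 in STZ.

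**Figure D2:**
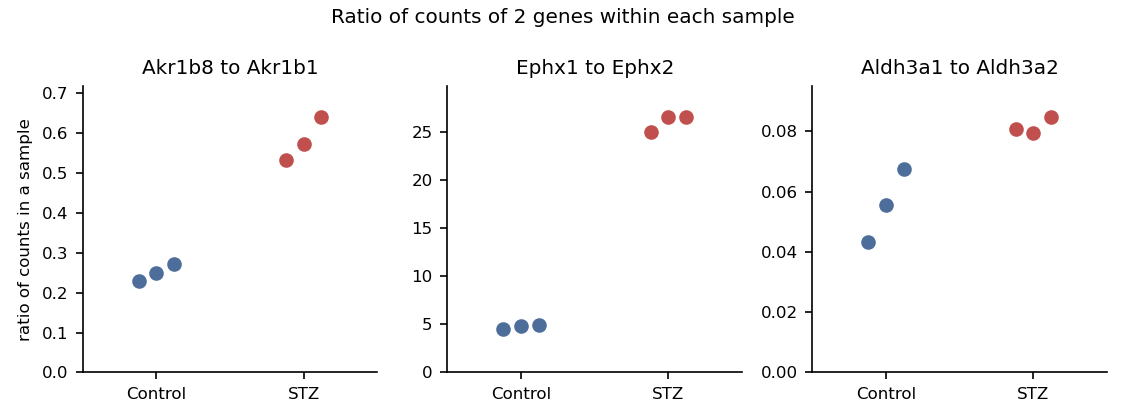
Ratio of the counts of 2 genes within each sample (vertical axes from 0, no unit) for Akr1b8 to Akr1b1, Ephx1 to Ephx2 and Aldh3a1 to Aldh3a2, in 3 Control samples (blue) and 3 STZ samples (red). All 3 ratios were higher in every STZ sample than in any Control sample, by 2.33-fold, 5.46-fold and 1.47-fold in the means. Other ratios taken are not drawn. That of Akr7a2 to Akr1a1 was lower in STZ without overlap (means 0.0591 in Control and 0.0489 in STZ), and that of Akr1b10 to Akr1b8 overlapped.

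Differences between samples of a group were not the same in all 8 genes. Among Control samples, replicate 1 had the lowest value of Akr1b8 and Aldh3a1 and the highest of Akr1b1, Akr7a2, Akr7a3, Ephx1 and Ephx2. Among STZ samples, replicate 3 had the highest value of Akr1b8 and Aldh3a1 and the lowest of Akr1a1, Akr7a2, Ephx1 and Ephx2. The SD within a group was between 2.64% of the mean, for Akr7a2 in Control, and 16.1%, for Aldh3a1 in Control, in the 7 genes that passed the filter on low counts. In GRCr8, Akr1b1, Akr1a1, Akr7a2 and Ephx1 each overlap a non-coding RNA or pseudogene. Whether counting used the strand is not given in the sources used here, so reads of such pairs may not be fully separated.

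Of the 7 genes that passed the filter, 6 had an adjusted p-value under 0.05 in the fit across all genes, 4 higher and 2 lower. The same threshold was passed by 50.9% of all genes tested, 25.9% higher and 25.1% lower. With an absolute log2 fold change over 1 as well, 2 of the 7 were left, Ephx1 and Akr1b8, both higher. Among all genes tested these thresholds were passed by 3.37%, with 2.26% higher and 1.11% lower. The groups did not overlap in 6 of the 7 genes, 4 higher and 2 lower, and in 56.3% of all genes tested, with 28.6% higher and 27.7% lower. The median log2 fold change was 0.33 for the 7 genes and -0.0055 for all genes tested. Nothing is read from these counts, since the same comparison was known when the genes were chosen.

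**Figure D3:**
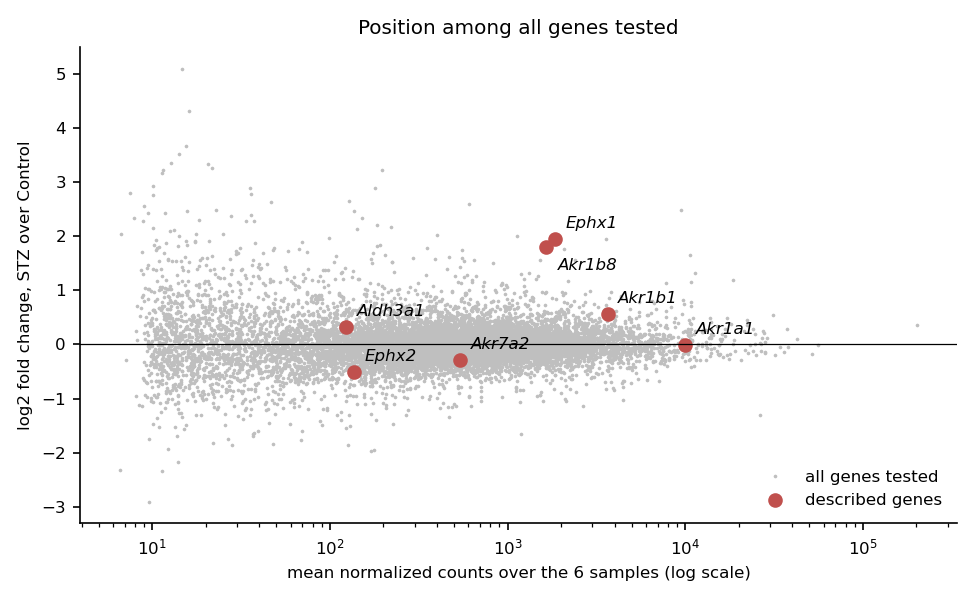
Log2 fold change of STZ over Control (vertical axis) against mean normalized counts over the 6 samples (horizontal axis, log scale) for the 11870 genes tested (grey) and the 7 described genes that passed the filter (red). Ephx1 and Akr1b8, at 1.95 and 1.79, lay above nearly all genes of similar counts, and Akr1a1 lay at -0.0048.

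The other genes of these families were looked up by symbol to place the described genes beside them. Of 18 other aldo-keto reductase symbols, 12 were in the table and 3 passed the filter on low counts, of which 1 was higher, Akr1b10, and 1 was lower at an adjusted p-value under 0.05. Among all genes tested, 25.9% were higher and 25.1% lower at this threshold. The lower gene was Akr1e2, a reductase of 1,5-anhydrofructose. It had 26, 31 and 26 counts in Control and 11, 22 and 10 in STZ, and its log2 fold change was -1.16 ± 0.31 (SE, edgeR's quasi-likelihood test, adjusted p = 0.00168). STZ replicate 2 was near the Control samples for Akr1e2. The 6 Akr1c genes in the table, a subfamily that reduces steroids and prostaglandins, had between 0 and 9 counts per sample.

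Of 18 other aldehyde dehydrogenase symbols, 16 were in the table and 10 passed the filter, of which 4 were higher, 2 were lower and 4 were not past the threshold. This is a share near the 50.9% of all genes tested that passed it. The median log2 fold change was 0.075. Aldh9a1, which oxidizes aminoaldehydes in the synthesis of carnitine, had the largest rise among those with at least 50 normalized counts, from 1486 ± 36.9 in Control (SD, n = 3) to 2250 ± 115 in STZ (SD, n = 3). Its log2 fold change was 0.60 ± 0.04 (SE, edgeR's quasi-likelihood test, adjusted p = 4.01e-15). Aldh18a1, which makes pyrroline-5-carboxylate from glutamate for the synthesis of proline, had the largest fall, from 812 ± 45.1 (SD, n = 3) to 540 ± 19.5 (SD, n = 3). Its log2 fold change was -0.59 ± 0.06 (SE, edgeR, adjusted p = 1.62e-11). Aldh4a1, named after its values were seen, acts in the opposite direction on proline, as it degrades the same intermediate to glutamate. It was higher in STZ, with a log2 fold change of 0.53 ± 0.04 (SE, edgeR, adjusted p = 3.18e-14). Aldh7a1, which had the most counts of the list, was not past the threshold, at -0.063 ± 0.04 (SE, edgeR, adjusted p = 0.160). Aldh1a2, the retinaldehyde dehydrogenase with 3059 to 3890 counts per sample, was likewise not past it, at -0.084 ± 0.04 (SE, edgeR, adjusted p = 0.0641).

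Of 4 other genes with epoxide hydrolase activity or sequence, only Lta4h, leukotriene A4 hydrolase, passed the filter. Its log2 fold change was 0.12 ± 0.04 (SE, edgeR's quasi-likelihood test, adjusted p = 0.0186), and it was no longer past the threshold at 0.11 without Control replicate 1, at 0.12 without Control replicate 2 or at 0.080 without STZ replicate 3. Ephx3 and Ephx4, also named after their values were seen, had at most 6 counts in any sample.

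**Figure D4:**
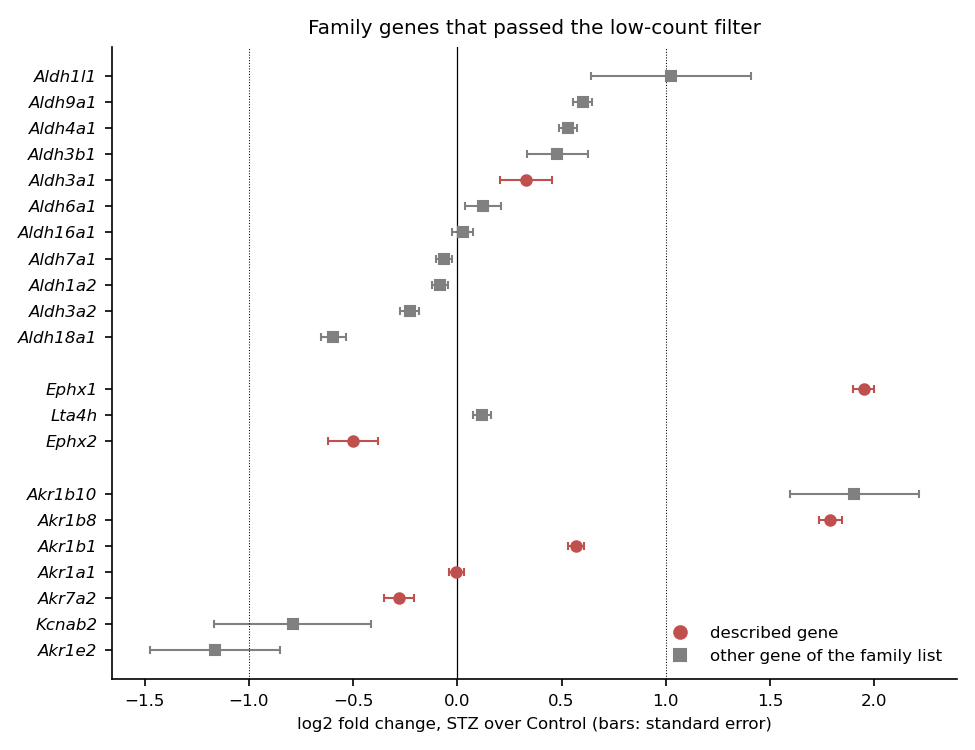
Log2 fold change of STZ over Control (horizontal axis, with the standard error as bars) for the aldo-keto reductase, epoxide hydrolase and aldehyde dehydrogenase genes that passed the filter on low counts, with described genes in red and other genes of the families in grey. Dotted lines mark -1 and 1. Ephx1, Akr1b10 and Akr1b8 lay near 2, Aldh1l1 lay just beyond 1, and Akr1e2 lay beyond -1.

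Genes that act before or after these enzymes, or that regulate them, were taken from lists written with earlier results of these data known. In the polyol pathway and among osmolyte genes, 5 of 6 genes tested other than Akr1b1 were higher at an adjusted p-value under 0.05, a threshold that 25.9% of all genes tested passed as higher. Their median log2 fold change was 0.22. The list was written with results known, and nothing particular to it is read from this count. Sord, sorbitol dehydrogenase, which turns the sorbitol made by Akr1b1 into fructose, had a log2 fold change of 0.23 ± 0.04 (SE, edgeR's quasi-likelihood test, adjusted p = 1.07e-05). Nfat5, the transcription factor of the osmotic stress response, had one of 0.21 ± 0.04 (SE, edgeR, adjusted p = 4.05e-05). Both were named after their values were seen.

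On the route from glucuronate to ascorbate and pentoses, which passes through Akr1a1, 2 of the 4 other genes tested were higher and 2 were not past the threshold. As higher, the threshold was passed by 25.9% of all genes tested. Xylb, xylulokinase, had the largest rise, from 502 ± 5.95 normalized counts in Control (SD, n = 3) to 821 ± 42.7 in STZ (SD, n = 3), with a log2 fold change of 0.70 ± 0.06 (SE, edgeR's quasi-likelihood test, adjusted p = 1.42e-13). Without STZ replicate 1, and likewise without STZ replicate 2, 1 of the 4 was higher. Ugdh, which makes UDP-glucuronate and, like Gulo, was named after its values were seen, was not past the threshold at -0.059 ± 0.05 (SE, edgeR, adjusted p = 0.285). Gulo, which carries out the last step of ascorbate synthesis, had at most 3 counts in any sample.

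Among other carbonyl and quinone reductases and alcohol dehydrogenases, 12 rows passed the filter, with Cbr1 listed in 2 rows. Of these, 6 were higher and 3 were lower past the threshold, against 25.9% higher and 25.1% lower among all genes tested. The median log2 fold change was 0.22. Nqo1, a quinone reductase and a classical Nrf2 target, had the largest rise, with 6469 ± 174 normalized counts in Control (SD, n = 3) and 16139 ± 1529 in STZ (SD, n = 3). Its log2 fold change was 1.32 ± 0.04 (SE), less than that of Ephx1 and Akr1b8, though this difference was not tested. Cbr4, a mitochondrial carbonyl reductase, had the largest fall, with a log2 fold change of -0.51 ± 0.13 (SE, edgeR's quasi-likelihood test, adjusted p = 9.62e-04).

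Of 8 regulators of Nrf2 activity tested, 2 were higher, 1 was lower and 5 were not past the threshold. The shares of all genes tested were 25.9% higher and 25.1% lower. Nfe2l2, which encodes Nrf2, had a log2 fold change of 0.061 ± 0.04 (SE, edgeR's quasi-likelihood test, adjusted p = 0.190). Keap1, which encodes its repressor, had one of 0.052 ± 0.05 (SE, edgeR, adjusted p = 0.419). Mafk, a small Maf partner of Nrf2, rose by 0.86 ± 0.18 (SE, edgeR, adjusted p = 1.25e-04) on the log2 scale, at 34 to 94 counts per sample. Sqstm1, the autophagy receptor p62 that binds Keap1, rose by 0.42 ± 0.04 (SE, edgeR, adjusted p = 4.97e-13). Mafg, another small Maf, fell by 0.17 ± 0.05 (SE, edgeR, adjusted p = 0.00242). RNA levels do not show the amount or location of the Nrf2 protein.

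Of 7 genes tested around the aryl hydrocarbon receptor, not counting Aldh3a1, 4 were higher, Nqo1 among them, and 1 was lower. Among all genes tested, 25.9% were higher and 25.1% lower. Cyp1a1, the cytochrome P450 by which activity of this receptor is usually followed, had the largest rise. It had 60, 54 and 69 counts in Control and 189, 161 and 218 in STZ, with a log2 fold change of 1.41 ± 0.13 (SE, edgeR's quasi-likelihood test, adjusted p = 1.58e-12). The other higher genes were Ahr, which encodes the receptor, and Tiparp, both named after their values were seen. Ahr had a log2 fold change of 0.35 ± 0.05 (SE, edgeR, adjusted p = 8.44e-07). Tiparp had one of 0.43 ± 0.04 (SE, edgeR, adjusted p = 4.90e-11). Arnt, the partner of the receptor, had the largest fall at -0.22 ± 0.05 (SE, edgeR, adjusted p = 1.16e-04). Ahrr and Cyp1b1, also targets of the receptor and named after their values were seen, were not past the threshold at -0.066 ± 0.25 (SE, edgeR, adjusted p = 0.847) and -0.063 ± 0.14 (SE, edgeR, adjusted p = 0.746), and the sign of both changed when single samples were left out.

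In the retinoid pathway, where Aldh1a enzymes make retinoic acid, 12 genes were tested and are reported. Of these, 1 was higher and 4 were lower, beside 25.9% higher and 25.1% lower among all genes tested. The median log2 fold change was -0.115. The higher gene was Dhrs9, a retinol dehydrogenase, with 325 ± 20.3 normalized counts in Control (SD, n = 3) and 724 ± 18.8 in STZ (SD, n = 3). Its log2 fold change was 1.16 ± 0.07 (SE, edgeR's quasi-likelihood test, adjusted p = 5.20e-19). Among the genes reported that passed the threshold with a mean of at least 50 normalized counts, Rxrb, a retinoid X receptor, had the largest fall at -0.36 ± 0.06 (SE, edgeR, adjusted p = 2.91e-06). Cytochrome P450 epoxygenases make the fatty acid epoxides that Ephx2 hydrolyses. Of 9 cytochrome P450 symbols looked up as candidates for this step, 7 were in the table and 3 passed the filter. Whether each of them makes such epoxides was not tested. None of the 3 was past the adjusted p-value threshold by edgeR, DESeq2 or limma-voom, and 1 had an unadjusted p under 0.05 by edgeR. Cyp2u1, with the most counts of this list, had a log2 fold change of 0.23 ± 0.11 (SE, edgeR, adjusted p = 0.0734).

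**Figure D5:**
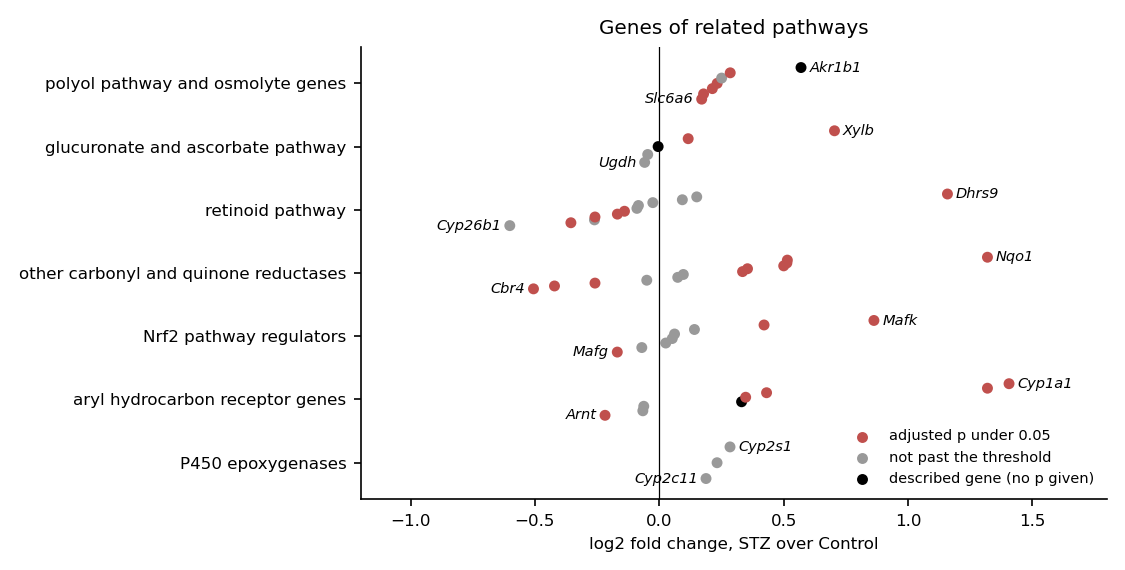
Log2 fold change of STZ over Control (horizontal axis) for each gene tested in 7 lists of related pathways, in red where the adjusted p-value was under 0.05, in grey where it was not, and in black for the described genes, for which no p is given. The lowest and highest gene of each list is named; polyol and osmolyte genes all lay above 0, and retinoid genes other than Dhrs9 lay mostly below 0.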

How the data were processed

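RNA was sequenced from 3 Control and 3 STZ samples of NRK-52E cells, and the deposited values are counts. The authors mapped reads to Rnor6 with STAR 2.7.10a (version from the submitters' processing notes), used featureCounts on the reads that mapped uniquely, and deposited the raw counts of 18930 rows. Of these, 2871 carry an Ensembl identifier only and 422 have a name that occurs more than once, and rows were not merged. All 6 columns were assigned by their titles, and totals between 10430924 and 15191349 limit the precision for low genes.

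Counts were scaled (TMM), filtered (filterByExpr, 11870 genes left) and compared in R 4.3.3 by the quasi-likelihood test of edgeR 4.0.16, and p-values were adjusted over all genes tested (Benjamini-Hochberg). Standard errors (SE) were derived from the F statistic, as the size of the log2 fold change over its square root. In simulated counts for 11870 genes, 195 of 200 changed genes were recovered and 17 unchanged genes were called. The changed genes had absolute log2 fold changes of at least 1, and all genes shared the same dispersion. Recovery of smaller differences was therefore not tested. The members and lists were chosen with earlier results of these data known. From each further list, the genes with the largest rise and largest fall past the threshold were named where the mean reached 50 normalized counts, together with the gene of the highest mean and with Nfe2l2 and Keap1. With 3 samples against 3, no rank or permutation test of a single gene that counts both directions can reach 0.05, so none is given. No pair of samples within a group was as close as sampling noise alone allows (lowest chi-square over degrees of freedom 1.85). The alternatives were 3 other filters, 3 other scalings, 3 other tests (edgeR's likelihood ratio test, DESeq2 1.42.0 and limma-voom, limma 3.58.1), the replicate block and each sample left out. Promoter windows and gene order came from RefSeq (GRCr8), a build other than that of the counts. A gene of the retinoid list is not reported here and was left out of that list's counts.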

Additional observations from a re-analysis of the deposited data

How the results depend on the processing

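The log2 fold changes of the 7 genes that could be fitted were recomputed under 16 alternatives each, and 107 of these values had the sign and the call of the reported value, 3 lost the call at an adjusted p of 0.05, all of them for Aldh3a1, and 2 changed sign, both for Akr1a1. With one sample left out, Akr1a1 was between -0.034 and 0.025, and it turned positive without Control replicate 2 (0.017) and without STZ replicate 3 (0.025). Ephx1 was at least 1.87 and Akr1b8 at least 1.72 in each of the 16 alternatives. The number of the 7 genes past the adjusted p-value threshold was 6, and 2 with the fold-change threshold as well, which is stricter by construction. Over all genes, 400 passed both thresholds, with 585 when no filter was used, 565 with at least 0.5 CPM in any sample and 249 with at least 10 counts in every sample. The last filter tests fewer genes, and with it 1 other aldo-keto reductase was past the threshold in place of 2. With library size only, no other epoxide hydrolase and 1 glucuronate and ascorbate gene were past it, in place of 1 and 2; the cause was not tested. With one sample left out, these numbers were 0 to 1 and 1 to 2, the latter falling to 1 without STZ replicate 1 and without STZ replicate 2. Of the other named genes, 296 values had the reported sign and call, 4 lost the call, all of them for Lta4h, and 4 gained it, 3 for Aldh1a2 and 1 for Aldh7a1. Genes named after their values were seen had alternatives chosen after seeing the data, and none were computed for Ahr and Tiparp. Among the values computed, 135 had the reported sign and call, 4 lost the call, all for Aldh1l1, and 3 changed sign. With one sample left out, Ahrr was between -0.24 and 0.013 and Cyp1b1 between -0.13 and 0.022; Ahrr turned positive without STZ replicate 1 (0.011) or 2.

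Control and STZ samples share replicate numbers, but the deviations of same-numbered samples from their group means had correlations of 0.0475, -0.0398 and 0.0746 over 11870 genes, and no pairing was found. In the fit with the replicate block, 398 genes passed both thresholds, 6 of the 7 described genes passed the adjusted p-value threshold, and the log2 fold changes of Ephx1 and Akr1b8 were 1.95 and 1.79.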

Other observations

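Among family genes outside the comparisons because of few reads, Aldh1a3, a retinaldehyde dehydrogenase, had 0, 1 and 1 counts in Control and 6, 5 and 1 in STZ, and Kcnab1, a potassium channel subunit with an aldo-keto reductase fold, had 6, 3 and 6 in Control and 2, 1 and 3 in STZ. Aldh1l1, a folate enzyme that passed the filter, had 5, 7 and 11 counts in Control and 27, 15 and 13 in STZ, with a log2 fold change of 1.02 ± 0.38 (SE, edgeR's quasi-likelihood test, adjusted p = 0.0232). The call was lost with DESeq2's Wald test (1.05) and without Control replicate 1 (0.85), Control replicate 2 (0.99) or STZ replicate 1 (0.66). These genes were chosen after their values were seen.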
